A study of Mus musculus with 4 samples.

Results

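Growth differentiation factors are secreted proteins of the BMP family, and the genes examined here are 5 such ligands, Gdf5, Gdf6, Gdf7, Gdf10 and Gdf11, with 3 BMP receptors, Bmpr1a, Bmpr1b and Bmpr2. They were chosen by name, with earlier results of these data known, and all 8 were found among the 32285 genes of the count files. Single-cell RNA-seq was performed on the presumptive knee joint of mouse embryos, with 1 library for each of 4 groups. The controls were labelled WT and were taken at E13.5 and E14.5, and the paper describes the E14.5 control of the mutants as without Cre. The other groups were taken at E14.5, with the genotypes Prx1Cre;Glut1f/f;Glut3f/+ and Prx1Cre;Glut1f/f;Glut3f/f, the latter called DCKO. Prx1Cre is active in the limb mesenchyme, so that muscle, blood and endothelial cells are not its targets, and Glut1 and Glut3 are the glucose transporters encoded by Slc2a1 and Slc2a3.

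Ligands of the BMP family bind a complex of type I and type II receptors, whose kinase activity passes to Smad proteins and on to target genes. Gdf5 marks the interzone, the band of flattened cells that separates neighboring cartilage elements where a synovial joint will form, and it binds the type I receptor Bmpr1b with preference over Bmpr1a. Gdf6 and Gdf7 are its closest relatives and are also found at forming joints, whereas Gdf10 is related to Bmp3, and Gdf11 to myostatin.

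Values for the 4 libraries are given throughout in the order control E13.5, control E14.5, library with the label Prx1Cre;Glut1f/f;Glut3f/+ and library labelled DCKO. The libraries held 12769, 9707, 11690 and 11602 cell barcodes and 100344565, 84188147, 97110697 and 91574038 unique molecular identifiers (UMIs), each of which stands for 1 captured mRNA molecule. Cells with 200 to 6000 genes and at most 10% UMIs of mitochondrial genes were kept, which left 12446, 9305, 11264 and 11305 cells. Their median depth was 6176.5, 7279, 6757 and 6379 UMIs, and the median mitochondrial share was 2.82, 2.40, 2.83 and 2.31%. Pairs of libraries shared between 25 and 40 barcodes, at most 0.381% of a library.

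The deleted genes were examined first. Slc2a1 stood at 48.1, 64.7, 339 and 428 CPM (UMIs of the gene scaled to the depth of the sum) over all kept cells, and at 49.9, 45.4, 250 and 292 CPM in the interzone-like cells described next. It was therefore higher, not lower, in the libraries with a deletion in the label. Skeletal muscle-like cells, which Prx1Cre does not target, went the same way, with 23.9 CPM in the E14.5 control and 57.3 and 73.9 CPM in these libraries. Slc2a3 was low in each library, at 5.13, 3.38, 4.32 and 2.70 CPM over all kept cells and 4.85, 4.06, 4.03 and 1.68 CPM in interzone-like cells. Against the E14.5 control its log2 ratio in the library labelled DCKO was -0.32 (-0.58 to -0.07) over all kept cells and -1.27 (-2.58 to -0.15) in interzone-like cells, the latter from 8 and 38 UMIs, which is the direction of the label. In the library with the label Prx1Cre;Glut1f/f;Glut3f/+ it was higher over all kept cells, at 0.35 (0.13 to 0.58), against the label. There it stood at -0.01 (-0.68 to 0.66) in interzone-like cells and at 0.61 (0.25 to 0.98) in chondrocyte-like cells. The UMIs come from the 3' ends of transcripts and may lie outside the deleted part, which is not given in the sources used here, so that they neither establish nor refute the genotypes. Because Slc2a1 and in part Slc2a3 go against the labels, the mutants are called the libraries with the labels Prx1Cre;Glut1f/f;Glut3f/+ and DCKO. Xist UMIs were found in 64.7, 0.172, 92.2 and 91.2% of the cells, and UMIs of 4 Y-linked genes in 18.4, 65.9, 0.0355 and 0.0265%. By these genes the E14.5 control was male, both libraries set against it were female and the E13.5 control held both sexes, so that sex and genotype cannot be told apart.

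Cells were assigned to classes by lists of 5 to 8 marker genes that held none of the 8 genes. Interzone-like cells were called from Osr2, Sfrp2, Creb5, Tgfbi, Erg, Wnt9a and Wnt4, and numbered 2963, 1355, 1584 and 773. The paper named Osr2, Sfrp2, Creb5 and Tgfbi beside Gdf5 as genes of its interzone cluster at E13.5 and E14.5. The rank of Gdf5 in interzone-like cells and its share of UMIs there thus follow in part from the choice of markers. Chondrocyte-like cells numbered 914, 4414, 4422 and 5520, fibroblast-like cells 1782, 1369, 2275 and 2003, and tendon-like cells 113, 255, 232 and 132. A further 39.4, 13.8, 16.0 and 18.7% of the kept cells could not be assigned. These classes are ranges of a score rather than separate populations, and 187, 146, 160 and 104 of the interzone-like cells lay within 0.1 score units of a neighboring class. The summed level of the 7 interzone markers in interzone-like cells had a median of 2645, 3148, 2502 and 1838 CPM, with 4 markers detected in the median cell of each library. Chondrocyte markers in the same cells had medians of 1806, 1351, 2256 and 2333 CPM. Since the defining markers themselves differed between libraries, class sizes were not compared. Classes next to each other in the order of a gene are called apart where the interval of their ratio leaves out 1, and are otherwise said to overlap. Doublets were kept. Each group has 1 library, so no test was possible, and the 95% intervals given with the values cover counting error only.

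Gdf5, on chromosome 2 of mm10 (ENSMUSG00000038259, 155941023 to 155945367, minus strand), was highest in interzone-like cells of every library, with 278, 187, 173 and 85.8 CPM. The Poisson intervals were 271 to 285, 178 to 196, 165 to 181 and 77.6 to 94.5 CPM, so that the 2 middle libraries overlapped while E13.5 lay above them and DCKO below. Among classes of at least 50 cells, tendon-like cells came next in both controls with 48.2 and 48.5 CPM, and they held 15.0 and 12.3 CPM in the other libraries. The 29 macrophage-like cells at E13.5 held 77.4 CPM, from 14 UMIs of which 12 lay in 1 cell. At E13.5 the tendon-like level was not apart from the 36.1 CPM of erythroid-like cells, a class that should lack the gene. Those 41 UMIs lay in 9 of 134 cells, 18 of them in 1 cell. Fibroblast-like cells held 11.0, 22.3, 15.2 and 16.8 CPM. In the E14.5 control they were apart from tendon-like cells above and chondrocyte-like cells below, but in the libraries with the labels Prx1Cre;Glut1f/f;Glut3f/+ and DCKO they overlapped with tendon-like cells. Chondrocyte-like cells held 10.7, 9.30, 12.2 and 7.75 CPM, beside 36.1, 8.66, 15.7 and 0 CPM in erythroid-like cells and 6.07, 3.51, 2.91 and 4.77 CPM in skeletal muscle-like cells. The Poisson intervals lay above those of muscle-like cells in the first 3 libraries, but not above those of erythroid-like cells in any library. This low level thus cannot be told apart from the erythroid-like background. Macrophage-like cells held 77.4, 0, 7.77 and 0 CPM in 29, 60, 69 and 61 cells.

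Of the interzone-like cells, 57.7, 48.9, 47.4 and 30.5% had a Gdf5 UMI, at median depths of 5779, 5623, 5455 and 5117 UMIs. After each cell was thinned to 2000 UMIs the shares were 35.6, 27.3, 26.2 and 15.1%, in the same order, with 37, 25, 20 and 14 shallower cells left out. In erythroid-like cells the unthinned share was 6.72, 4.82, 7.69 and 0% at 7606, 8919, 8396 and 7893.5 UMIs, where the 0 of 38 cells allows a share of up to 7.89%. The positive interzone-like cells also held fewer molecules each, with a mean of 3.52, 2.64, 2.46 and 1.73 Gdf5 UMIs, and 422, 95, 101 and 7 of them held 5 or more. Interzone-like cells contributed 82.5, 62.2, 61.9 and 33.0% of all Gdf5 UMIs, while they held 23.6, 11.8, 11.5 and 5.40% of all UMIs. Chondrocyte-like cells, with their low level in many cells, contributed 1.06, 13.8, 17.5 and 31.2% of the Gdf5 UMIs.

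**Figure D1:**
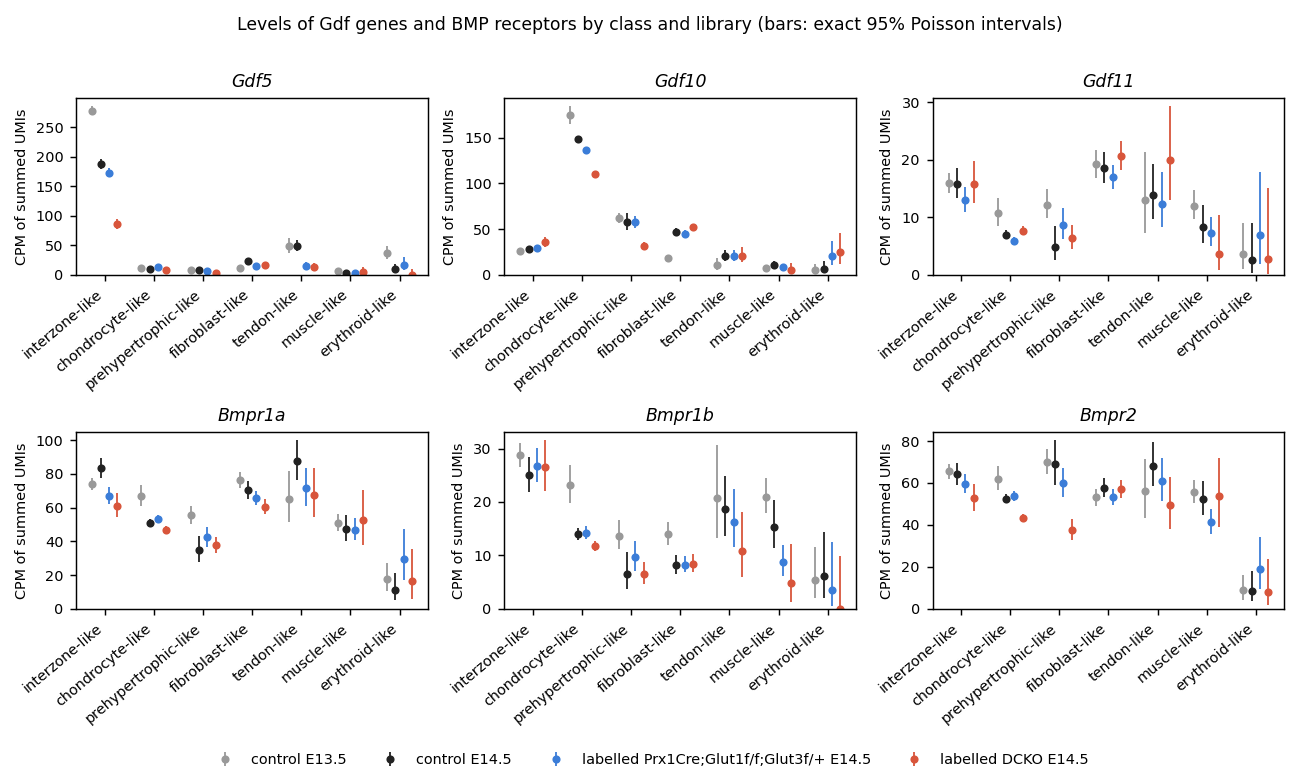
CPM of summed UMIs of 6 genes (vertical axes) in 7 marker-gated classes (horizontal axes) of the 4 libraries, with exact 95% Poisson intervals as bars. Gdf5 is highest in interzone-like cells (278 to 85.8 CPM) and Gdf10 in chondrocyte-like cells (175 to 110 CPM), whereas Bmpr1a and Bmpr2 are spread over the mesenchymal classes.

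Gdf6, on chromosome 4 (ENSMUSG00000051279, 9844372 to 9862345, plus strand), was sparse, with 54, 70, 63 and 29 UMIs over all kept cells. Interzone-like cells held 25, 29, 22 and 3 of them, or 1.16, 3.10, 2.06 and 0.631 CPM, and fibroblast-like cells 14, 26, 26 and 18. Among chondrocyte-like cells, by far the most numerous class at E14.5, there were only 0, 1, 3 and 4. Erythroid-like cells had none, which allows up to 2.24, 3.61, 5.77 and 7.89% of them to hold a UMI. Gdf7, on chromosome 12 (ENSMUSG00000037660, 8297918 to 8301954, minus strand), was nearly absent, with 4, 2, 8 and 2 UMIs. Of these, 1, 2, 7 and 1 fell in fibroblast-like cells, and the depth does not allow any comparison of Gdf7.

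Gdf10, on chromosome 14 (ENSMUSG00000021943, 33923587 to 33937983, plus strand), was a gene of chondrocyte-like cells, with 175, 148, 137 and 110 CPM. None of the neighboring intervals of these 4 values overlapped. Prehypertrophic chondrocyte-like cells, which are marked by Ihh and Col10a1, followed in the first 3 libraries at 61.7, 57.8 and 57.4 CPM, and held 31.0 CPM in the library labelled DCKO. Fibroblast-like cells stood at 18.2, 46.5, 44.9 and 51.8 CPM, so that E13.5 was low and the E14.5 libraries were close together. Interzone-like cells held 26.0, 27.9, 28.7 and 35.5 CPM. Erythroid-like cells held 5.29, 6.18, 20.9 and 24.3 CPM, from 6, 5, 12 and 9 UMIs, which lay in 6, 4, 6 and 2 cells. The interzone-like level was above that background in both controls and overlapped with it in the other libraries. A Gdf10 UMI was found in 61.1, 61.3, 58.8 and 49.7% of the chondrocyte-like cells, and in 28.3, 26.5, 25.0 and 20.8% after thinning, against 4.48, 4.82, 11.5 and 5.26% of erythroid-like cells without thinning.

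Gdf11, on chromosome 10 (ENSMUSG00000025352, 128882295 to 128891718, minus strand), was detected in each of the mesenchymal classes. Fibroblast-like cells held 19.2, 18.5, 16.96 and 20.6 CPM, interzone-like cells 15.9, 15.8, 12.9 and 15.8 CPM, and chondrocyte-like cells 10.7, 6.98, 5.83 and 7.59 CPM. The fibroblast-like level was apart from the interzone-like level at E13.5 and in the library with the label Prx1Cre;Glut1f/f;Glut3f/+, and overlapped with its next neighbor in the order in the other libraries. Erythroid-like cells held 3.52, 2.47, 6.97 and 2.70 CPM, and were lower than and apart from chondrocyte-like cells at E13.5. In the 3 E14.5 libraries the Poisson intervals of these classes overlapped, as did those of erythroid- and interzone-like cells in the libraries with the labels Prx1Cre;Glut1f/f;Glut3f/+ and DCKO.

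Bmpr1a, a type I receptor, lies on chromosome 14 (ENSMUSG00000021796, 34410734 to 34503341, minus strand). Its level in interzone-like cells was 74.2, 83.3, 67.1 and 61.0 CPM, in tendon-like cells 65.4, 87.8, 71.5 and 67.7 CPM, and in fibroblast-like cells 76.4, 70.4, 65.7 and 60.6 CPM. Among these 3 classes the neighbors in the order overlapped in each library, except that fibroblast-like cells lay below interzone-like cells in the E14.5 control. Chondrocyte-like cells held 67.1, 50.9, 53.2 and 46.9 CPM. Endothelial-like cells were almost without Bmpr1a, with 8.48, 0, 4.90 and 5.68 CPM in 56, 28, 63 and 73 cells. Erythroid-like cells held 17.6, 11.1, 29.6 and 16.2 CPM.

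Bmpr1b, the type I receptor preferred by Gdf5, lies on chromosome 3 (ENSMUSG00000052430, 141837136 to 142169425, minus strand). Interzone-like cells ranked first in all 4 libraries, with 28.7, 25.0, 26.8 and 26.5 CPM, and the intervals of these values overlapped. They were apart from the next class in 3 libraries, and overlapped with tendon-like cells (18.7 CPM) in the E14.5 control. Chondrocyte-like cells held 23.1, 14.0, 14.2 and 11.7 CPM, and fibroblast-like cells 14.0, 8.12, 8.25 and 8.39 CPM. In both classes the highest value was at E13.5. The background in erythroid-like cells was 5.29, 6.18, 3.48 and 0 CPM.

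Bmpr2, a type II receptor, lies on chromosome 1 (ENSMUSG00000067336, 59763400 to 59879014, plus strand). Interzone-like cells held 65.5, 64.3, 59.6 and 52.8 CPM, chondrocyte-like cells 62.1, 52.4, 53.7 and 43.2 CPM, and fibroblast-like cells 53.1, 57.6, 53.3 and 57.1 CPM. Endothelial-like cells, which were nearly without Bmpr1a, had the most Bmpr2 in the libraries with the labels Prx1Cre;Glut1f/f;Glut3f/+ and DCKO (99.7 and 112 CPM), and stood apart there from the next class. At E13.5 their 76.3 CPM overlapped with osteogenic-like cells, and in the E14.5 control the class held 112 CPM in 28 cells, too few to be ranked. Erythroid-like cells held 8.81, 8.66, 19.2 and 8.09 CPM.

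The age comparison set the E14.5 control against the E13.5 control, and asked how these genes differ as the interzone matures. Over all kept cells Gdf5 fell from 79.4 to 35.5 CPM, a log2 ratio of -1.16 (-1.23 to -1.10), while Gdf10 went from 40.6 to 94.1 CPM, a log2 ratio of 1.21 (1.16 to 1.27). Gdf11 went from 15.6 to 10.1 CPM (-0.63, -0.75 to -0.50) and Gdf6 from 54 to 70 UMIs (0.59, 0.05 to 1.13), both close to 1.5-fold and short of it under 2 and 3 of 6 alternatives. In these sums a lower share of a cell type and less RNA per cell cannot be told apart. Within interzone-like cells the Gdf5 log2 ratio was -0.57 (-0.65 to -0.50), or 1.49-fold, just short of the 1.5-fold used here to call a difference. It passed 1.5-fold under 6 of the 9 alternatives, among them E13.5 cells without Xist. Gdf6 in these cells went from 1.16 to 3.10 CPM, a log2 ratio of 1.42 (0.60 to 2.26) that rests on 54 UMIs. The summed fibroblast markers in interzone-like cells had medians of 873 CPM at E13.5 and 2126 CPM in the E14.5 control. Their part in the Gdf5 and Gdf6 differences was not tested. Of the 7 genes with at least 50 UMIs in both sums together, 1 was higher and 0 were lower, beside 8.19% and 8.63% of the 12317 genes measured in this way. The median log2 ratio was -0.01 for the members and -0.05 for all genes.

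In chondrocyte-like cells 0 of 6 members were higher and 2 were lower with age, beside 8.95% and 10.5% of all genes, and the member median was -0.32 against -0.10. These were Bmpr1b, with a log2 ratio of -0.72 (-0.97 to -0.47), and Gdf11, with -0.61 (-0.98 to -0.23). With TMM factors every ratio in these cells moves by 0.14, and Gdf11 then no longer reached 1.5-fold, as under 4 other alternatives of 9. The summed chondrocyte markers that define these cells had medians of 9608 CPM at E13.5 and 17330 CPM in the E14.5 control. The part of this shift in the Bmpr1b and Gdf11 differences was not tested. In fibroblast-like cells 2 of 6 members were higher and 1 was lower, beside 9.75% and 9.07%. Gdf10 rose by 1.35 (1.12 to 1.58) and Gdf5 by 1.02 (0.71 to 1.34) on the log2 scale, and Bmpr1b was at -0.79 (-1.18 to -0.41). The E13.5 level of Gdf5 in these cells, 11.0 CPM, was not above that of erythroid-like cells. Gdf5 fell short of 1.5-fold when scores were scaled within each library, and Bmpr1b when only E13.5 cells without Xist were used. In tendon-like cells Gdf10 alone of 6 members was higher, at 0.97 (0.04 to 2.01), and 0 were lower, beside 11% and 8.46%. Its 10.3 CPM at E13.5, from 12 UMIs, overlapped with the 5.29 CPM of erythroid-like cells, and under 8 alternatives the ratio lay between 0.78 and 1.99. The summed chondrocyte markers had medians of 159 and 572 CPM in the fibroblast-like cells of the younger and the older control and of 276 and 591 CPM in the tendon-like cells, and the part of such cells in the Gdf10 differences was not tested.

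The library with the label Prx1Cre;Glut1f/f;Glut3f/+ was next set against the E14.5 control, which also served for the other comparisons, to ask what differs when 1 Glut3 allele remains by the label. Gdf5 in interzone-like cells was nearly level, with 187 CPM in the control and 173 CPM here, a log2 ratio of -0.11 (-0.21 to -0.02) that TMM factors, which shift the ratios of this class by 0.12, turned to 0.01. Bmpr1a had a log2 ratio of -0.31 (-0.46 to -0.16), or 1.24-fold. Gdf6, with 29 and 22 UMIs, stood at -0.59 (-1.46 to 0.26), a 1.503-fold difference that was not detectable at this depth. Of 7 members 0 were higher and 1, Gdf6, was lower, beside 1.61% and 5.54% of 11377 genes, with a median of -0.11 for the members and -0.12 for all genes. In chondrocyte-like cells 0 of 6 members passed 1.5-fold, beside 3.18% higher and 4.93% lower, and in fibroblast-like cells 0 of 7, beside 2.07% and 2.4%.

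In tendon-like cells the Gdf5 level was 48.5 CPM in the control and 15.0 CPM in the library with the label Prx1Cre;Glut1f/f;Glut3f/+, a log2 ratio of -1.69 (-2.28 to -1.13), from 122 and 34 UMIs. The lower of these levels was not apart from the 15.7 CPM of erythroid-like cells. This made 1 of 6 members lower and 0 higher, beside 8.26% and 2.91%. The summed interzone markers in tendon-like cells had a median of 1586 CPM in the control against 471 CPM, and 781 and 583 CPM at E13.5 and in the library labelled DCKO. The part of such cells in the Gdf5 difference was not tested.

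The library labelled DCKO was set against the same control to ask what differs when both transporters are deleted by the label. Gdf5 was lower in interzone-like cells, at 85.8 against 187 CPM, a 2.18-fold difference with a log2 ratio of -1.12 (-1.28 to -0.97). Under the 8 alternatives that could be computed it lay between -1.38 and -0.96 and always passed 1.5-fold. The receptor Bmpr1b in the same cells was level at 0.08 (-0.24 to 0.40), and Bmpr1a and Bmpr2 had log2 ratios of -0.45 (-0.65 to -0.25) and -0.28 (-0.50 to -0.07), short of 1.5-fold. Gdf10 was at 0.35 (0.06 to 0.63) and Gdf11 at 0.00 (-0.42 to 0.41). Gdf6 had 3 UMIs against 29 and was too sparse to count, with a ratio of -2.30 (-4.65 to -0.61). Of 6 members 0 were higher and 1 was lower, beside 2.44% and 10.4% of 10733 genes, and both medians were -0.14. The interzone markers that define these cells were lower here as well (1838 against 3148 CPM), chondrocyte markers were higher (2333 against 1351 CPM) and the depth was lower, and the part of each in the Gdf5 and Gdf10 differences was not tested.

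Over all kept cells Gdf5 went from 35.5 to 14.0 CPM in the DCKO comparison, a log2 ratio of -1.34 (-1.44 to -1.24), and Gdf6 from 70 to 29 UMIs, a log2 ratio of -1.42 (-2.10 to -0.78). Tendon-like cells had 48.5 and 12.3 CPM of Gdf5, a log2 ratio of -1.98 (-2.83 to -1.22), and Bmpr1b there was at -0.79 (-1.77 to 0.09), an interval that includes no difference, and between -1.81 and -0.69 under 8 alternatives. These were 2 of 6 members lower and 0 higher, beside 13.4% and 3.2%. In chondrocyte-like cells 0 of 6 members passed 1.5-fold, beside 4.2% higher and 12.2% lower, with Gdf10 the furthest from level at -0.43 (-0.48 to -0.38). In fibroblast-like cells it was again 0 of 6, beside 1.7% and 4.44%. TMM factors shift the ratios of the DCKO comparison by 0.16 in all kept and in chondrocyte-like cells, by 0.12 in interzone-like cells and by 0.11 in tendon-like cells, and those of the age comparison in all kept cells by 0.11.

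**Figure D2:**
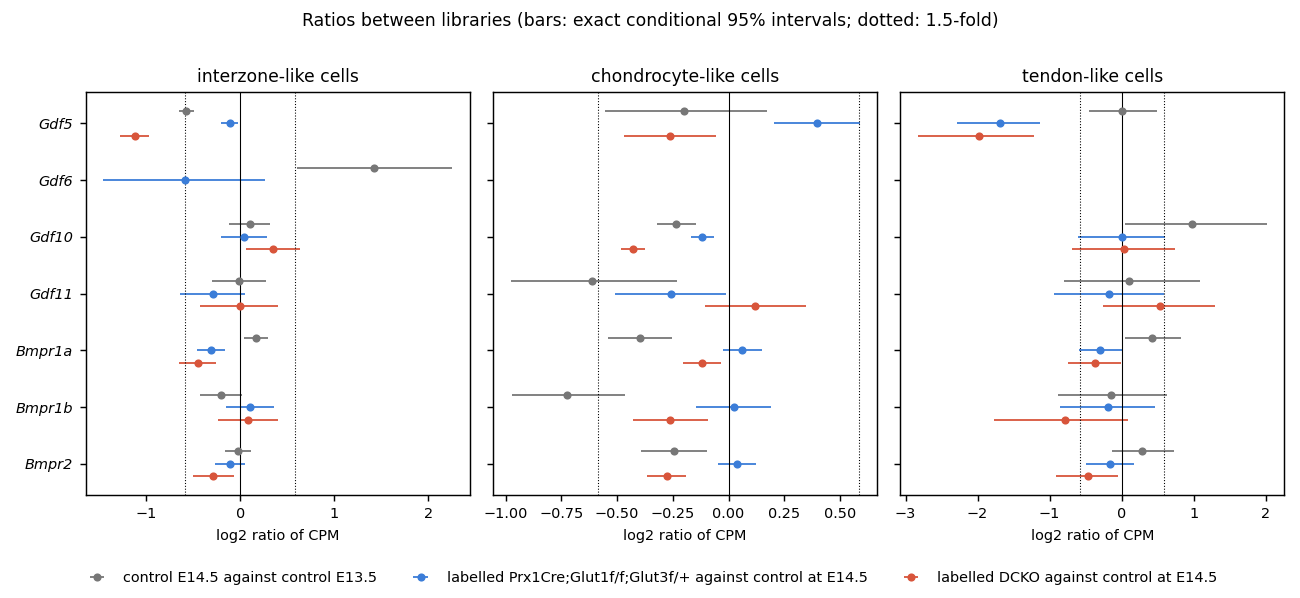
Log2 ratios of CPM (horizontal axes) for the members with at least 50 UMIs in both sums together (vertical axis) in interzone-, chondrocyte- and tendon-like cells for the 3 comparisons, with exact conditional 95% intervals as bars and 1.5-fold as dotted lines. The Gdf5 ratio of the DCKO comparison lies at -1.12 in interzone-like and -1.98 in tendon-like cells, and at -0.26 in chondrocyte-like cells.

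Co-detection was then examined within single interzone-like cells. Gdf10 was found in 7.66, 7.39, 9.99 and 8.90% of the cells with a Gdf5 UMI, and in 16.2, 14.6, 14.4 and 18.2% of those without. The share was lower in cells with Gdf5 in each library, with intervals that were apart in 3 and overlapped in the library with the label Prx1Cre;Glut1f/f;Glut3f/+, although they were the deeper ones, with medians of 5962.5 against 5616 UMIs at E13.5 and 5597.5 against 4926 in the library labelled DCKO. After thinning the shares were 1.72, 1.90, 3.08 and 0% with Gdf5 and 5.75, 6.65, 6.48 and 7.20% without. These intervals, too, overlapped in that library alone, by a narrow margin (1.65 to 5.21 against 5.12 to 8.07%). Gdf10 is high in chondrocyte-like cells and interzone-like cells carry chondrocyte markers in part, and the part of such cells in this pattern was not tested.

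For the receptors, Bmpr1b was found in 19.5, 16.1, 15.0 and 14.4% of interzone-like cells with Gdf5 and in 13.3, 13.4, 15.1 and 12.8% of those without, and the intervals were apart at E13.5 only. After thinning the shares were 6.29, 4.62, 5.92 and 2.83% with Gdf5 and 5.33, 4.05, 4.90 and 4.75% without, and the intervals overlapped in every library. Before thinning the intervals were apart for Bmpr1a in the E14.5 control only and for Bmpr2 at E13.5 only, and after thinning those of both genes overlapped in every library. Bmpr1a or Bmpr1b was detected together with Bmpr2 in 22.3, 22.02, 16.6 and 16.1% of the cells with Gdf5 and in 15.2, 14.9, 14.3 and 11.4% of those without. These intervals were apart in both controls, at median depths of 5962.5 against 5616 and 5722 against 5540.5 UMIs, and overlapped in the other libraries. They were not recomputed after thinning. Gdf6 was co-detected with Gdf5 in 11, 17, 12 and 2 cells.

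In chondrocyte-like cells the same question was asked of Gdf10. Bmpr1b was found in 18.1, 13.4, 12.9 and 11.1% of the cells with Gdf10 and in 8.99, 8.60, 10.1 and 7.53% of those without, with intervals that were apart in each library. Thinning left 6.18, 3.92, 4.00 and 3.23% against 3.63, 2.72, 3.18 and 2.34%, with overlapping intervals in each library. For Bmpr1a the thinned shares were 16.99, 10.4, 9.42 and 9.96% with Gdf10 and 9.31, 9.35, 9.58 and 8.75% without, and were apart at E13.5 only. Bmpr1a or Bmpr1b was found together with Bmpr2 in 22.9, 19.2, 19.6 and 17.1% of the cells with Gdf10 and in 15.7, 16.0, 16.1 and 9.30% of those without, again before thinning. The intervals overlapped in both controls and were apart in the other libraries.

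**Figure D3:**
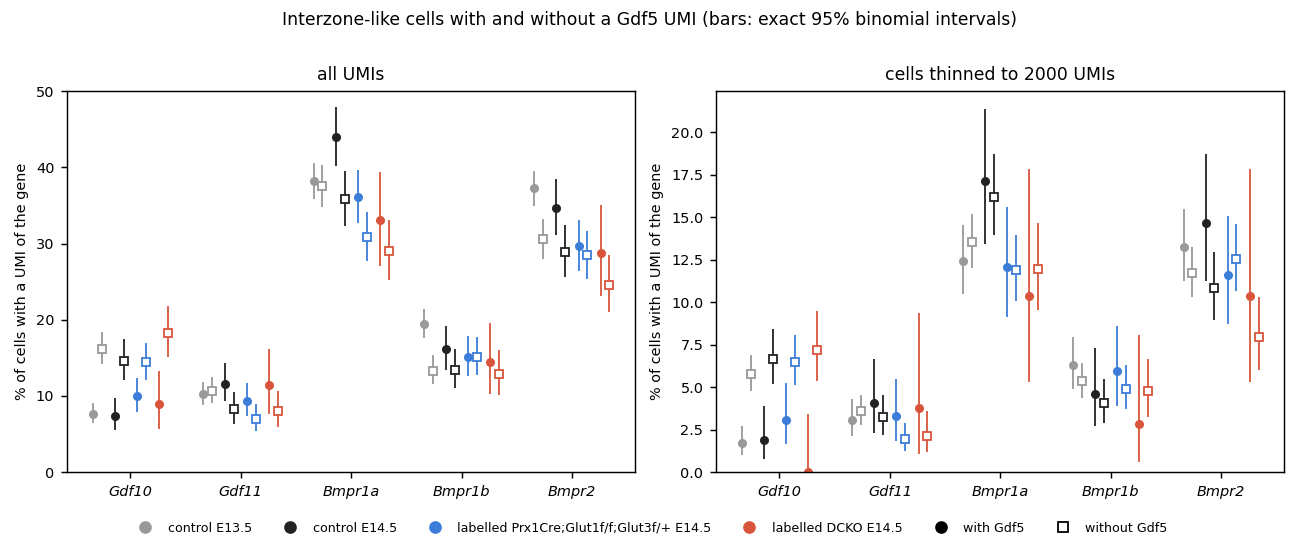
Share of interzone-like cells with a UMI of the named gene (vertical axes, percent) among cells with (filled circles) and without (open squares) a Gdf5 UMI, per library, with all UMIs on the left and after thinning to 2000 UMIs on the right. Bars are exact 95% binomial intervals. Gdf10 lies lower in the cells with Gdf5 in each library (7.66 against 16.2% at E13.5), whereas the thinned receptor shares overlap.

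A list of 63 other genes of the pathway was examined in the same sums. With age, 9 of the 53 measured in interzone-like cells were higher and 10 lower by 1.5-fold, beside 8.19% and 8.63% of all genes, with a median log2 ratio of -0.02 against -0.05 for all genes. Nog, which encodes the BMP antagonist Noggin, fell from 72.3 to 28.3 CPM, a log2 ratio of -1.35 (-1.55 to -1.16), and the ligand gene Bmp7 from 9.10 to 2.35 CPM (-1.95, -2.66 to -1.32). The type II TGFβ receptor gene Tgfbr2 went the other way, from 20.6 to 44.6 CPM (1.12, 0.92 to 1.31), as did the antagonist gene Fstl3, from 9.01 to 25.2 CPM. In chondrocyte-like cells 4 of 52 were higher and 10 lower, beside 8.95% and 10.5%, with a median of -0.14 against -0.10. By role, 5 of 8 target genes, 3 of 13 antagonists, 1 of 8 Smads and 1 of 5 co-receptors were lower there, which was not tested. Hey1 stood at -1.26 and Msx2 at -1.09, and Nog went from 167 to 80.0 CPM. The chondrocyte markers in these cells had medians of 9608 CPM at E13.5 and 17330 CPM in the E14.5 control, and their part in these differences was not tested.

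In the library with the label Prx1Cre;Glut1f/f;Glut3f/+, 3 of 47 pathway genes were higher and 8 lower in interzone-like cells, beside 1.61% and 5.54% of all genes, with a median of -0.16 against -0.12. By role these were 4 of 12 antagonists, 2 of 6 ligands, 1 of 3 type II receptors and 1 of 4 proteases. The antagonists included Sostdc1 (16.4 to 5.52 CPM, log2 ratio -1.57), Fst (27.0 to 14.4 CPM, -0.91) and Chrd (13.3 to 7.21 CPM, -0.89). Nog was higher, at 44.4 against 28.3 CPM (0.65, 0.43 to 0.87). In chondrocyte-like cells 3 of 53 were higher and 1 was lower, beside 3.18% and 4.93%, and the medians were -0.03 and -0.10. Those higher were Gdf15, Msx1 and Chrdl1, with the ligand gene Gdf15 at 1.25 against 0.167 CPM (2.90, 1.75 to 4.28). In tendon-like cells 3 of 36 were higher, namely Tgfbr3, Grem1 and Ror2, and 8 were lower, beside 2.91% and 8.26%. The interval of Ror2 (0.59, -0.11 to 1.31) includes no difference. There Fst had 23.4 against 84.6 CPM (-1.85, -2.32 to -1.41) and Fstl3 5.30 against 29.8 CPM (-2.49, -3.51 to -1.60). The interzone markers in tendon-like cells were lower as well (471 against 1586 CPM), and their part in these differences was not tested.

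For the library labelled DCKO, 1 of 44 pathway genes was higher and 11 were lower in interzone-like cells, beside 2.44% and 10.4% of all genes, with a median of -0.32 against -0.14 for all genes. Inhba, which encodes an activin subunit, had 33.8 against 107 CPM (-1.66, -1.91 to -1.42), and the antagonist genes Nbl1 and Fstl3 stood at -1.29 (-1.62 to -0.97) and -1.21 (-1.67 to -0.77). The gene that was higher is Bmper, at 0.75 (0.06 to 1.44). In these cells the interzone markers were lower (1838 against 3148 CPM) and the chondrocyte markers higher (2333 against 1351 CPM). The part of such shifts in the pathway differences was not tested. In chondrocyte-like cells 2 of 53 were higher and 15 lower, beside 4.2% and 12.2%, with a median of -0.28 against -0.17. By role these were 5 of 8 target genes, 3 of 8 Smads, 3 of 13 antagonists, 1 of 7 ligands, 1 of 5 co-receptors, 1 of 3 type II receptors, 1 of 5 proteases and 0 of 4 type I receptors. Id1 had 165 against 486 CPM (-1.56, -1.60 to -1.52), and the lower Smads included Smad7 (79.0 against 201 CPM, -1.35) and Smad6 (3.92 against 7.89 CPM, -1.01). Gdf15, a stress-induced member of the family, had 6.97 against 0.167 CPM (5.38, 4.32 to 6.70). In tendon-like cells 1 of 33, Pcsk5, was higher and 10 were lower, beside 3.2% and 13.4%, with Fst at 18.5 against 84.6 CPM and Id4 at 6.16 against 30.2 CPM. Interzone markers were lower there too (583 against 1586 CPM), and their part in these differences was not tested.

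The genes most like a member were sought by the Pearson correlation of log2(CPM + 1) over 38 sums of at least 50 cells, which share libraries and depth. Among 9503 genes, Gdf5 was nearest to C130073E24Rik (r = 0.84), followed by Osr2, Nxph1, Smoc1 and Lrba, down to 0.81. Osr2 is one of the markers that define the interzone-like cells. Gdf10 was nearest to Col27a1 (0.89), Wwp2, Edil3, Phyh and Slc35e3. Gdf11 was nearest to Dlg5 (0.86), Chd3, Samd14, Mdk and Ift74. Bmpr1b came closest to Spsb4 (0.81), Gli3, Fndc3c1, Zfp398 and Cdon. For Bmpr2 the list was Ctnnb1 (0.94), Luzp1, Zdhhc20, Smad6 and Ndfip2. Of each 5, the Spearman correlation shared 2, 2, 2, 1 and 1 in the order given, so these lists depend on the measure. Gdf6 and Gdf7 were too low to be ranked. Between members, the highest correlations were those of Bmpr1a with Bmpr1b (0.69) and of Gdf5 with Bmpr1b (0.61), whereas Gdf5 and Gdf10 were at 0.10.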

How the data were processed

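The authors prepared 10x 3' libraries from presumptive knee joint cells, took the reads to cell barcodes and genes of mm10 by Cell Ranger 6.1.2 (named in the file headers), with Seurat 3 in the submitters' processing notes, and deposited the UMI counts without normalization. Of the gene identifiers, 32235 of 32285 (99.8%) matched the GENCODE annotation of GRCm38 (mm10), which gives the coordinates.

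For each class and library the UMIs of all its cells were added up and divided by their total, which gives CPM. CPM values carry exact Poisson intervals, shares Clopper-Pearson intervals and ratios exact conditional intervals. Thinned levels are the exact expectation over draws of 2000 UMIs, and thinned co-detection comes from 1 seeded draw. A gene entered a ratio with at least 50 UMIs in both sums together, and 1.5-fold was the rule of size. The limit given for a count of 0 is a floor of 3 counts of the total, not a Clopper-Pearson bound. Cells of a class outside the mesenchyme needed 3 of its markers and no second such class. The rest took the mesenchymal class with the highest mean marker score, in SD units of ln(1 + UMIs per 10000) over all libraries, if 3 of its markers were detected. This scoring rule was chosen after the files had been examined.

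The genes named are the 8 members, Slc2a1 and Slc2a3, at most the 5 largest moves past 1.5-fold in each direction among the pathway genes per comparison and class described, and the 5 genes most correlated with each member that reached 10 CPM in a class of every library, among genes with at least 20 CPM in a sum. The genes most correlated with Bmpr1a are not reported here. Members and lists were chosen with earlier results of these data known. Python 3.11.15 with numpy 2.4.6, scipy 1.17.1, pandas 2.3.3 and matplotlib 3.10.9 was used, with scanpy 1.11.5 for Scrublet and edgeR 4.0.16 in R 4.3.3 for TMM factors. The interval and ratio functions were tested on simulated data. Doublets were kept: the threshold of Scrublet marked 0, 2, 0 and 1 cells, under 0.5%, so it had not worked, and the planned removal of called doublets was not run. In its place the 8% of cells with the highest scores (996, 744, 901 and 904) were left out as an alternative.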

Additional observations from a re-analysis of the deposited data

Results flagged for a closer look

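A gene appears here where its ratio went one way in interzone-like cells and the other way in chondrocyte-like cells of the same libraries, each beyond counting error. With 1 library in each group, none of these differences between classes was tested.

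Bmpr1a had a log2 ratio of 0.17 (0.04 to 0.29) with age in interzone-like cells, from 74.2 to 83.3 CPM, and of -0.40 (-0.54 to -0.25) in chondrocyte-like cells, from 67.1 to 50.9 CPM. Both lie short of 1.5-fold, from 914 chondrocyte-like cells in the younger control and 4414 in the older. The chondrocyte markers in those cells had medians of 9608 and 17330 CPM, and their part in the second value was not tested.

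Gdf5 in the library with the label Prx1Cre;Glut1f/f;Glut3f/+ stood at -0.11 (-0.21 to -0.02) against the E14.5 control in interzone-like cells, which TMM factors turned to 0.01, and at 0.40 (0.20 to 0.59) in chondrocyte-like cells, where its 12.2 CPM lay within the counting error of erythroid-like cells (15.7 CPM) and above skeletal muscle-like cells (2.91 CPM).

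Gdf10 in the library labelled DCKO was at 0.35 (0.06 to 0.63) in interzone-like cells, from 27.9 to 35.5 CPM, and at -0.43 (-0.48 to -0.38) in chondrocyte-like cells, from 148 to 110 CPM. Over the same libraries the level in erythroid-like cells went from 6.18 to 24.3 CPM on 5 and 9 UMIs, the latter in 2 cells, and the chondrocyte markers in interzone-like cells from a median of 1351 to 2333 CPM, and the part of either in the first value was not tested.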

How the results depend on the processing

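No paired analysis was possible because each group has 1 library. Gates without Sfrp2, a stricter gate, other cell filters, a UMI minimum of 20, TMM factors, per-cell means and 2-fold were planned, and the removal of the highest Scrublet scores, scores scaled within each library and E13.5 cells without Xist were chosen after seeing the data. Leaving out the cells that Scrublet called doublets was planned and not run.

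For interzone-like cells with age, the 1 member past 1.5-fold became 2 with the mean of per-cell CPM, without the highest Scrublet scores and with scores scaled within each library. The remaining settings gave 1, but with a stricter gate, without Sfrp2 and without Xist cells that member was Gdf5, and with scores scaled within each library the 2 were Gdf5 and Gdf10. Gdf6 then fell under the UMI minimum, while its log2 ratio lay between 0.92 and 1.61 under 9 alternatives. The 2 members in chondrocyte-like cells with age became 1 under both other cell filters, per-cell means, TMM factors, the gate without Sfrp2 and the removal of the highest Scrublet scores, 0 at 2-fold, and 3, with Gdf5 added, with scores scaled within each library. The 1 was Gdf11 with per-cell means and Bmpr1b in the other settings. For the library with the label Prx1Cre;Glut1f/f;Glut3f/+ the 1 member in interzone-like cells became 0 with the stricter cell filter, per-cell means, TMM factors, the stricter gate, the gate without Sfrp2, 2-fold and the removal of the highest Scrublet scores. That member was Gdf6, whose log2 ratio lay between -1.05 and -0.24 under 8 alternatives. It passed 1.5-fold under 4 of them, but did not reach the UMI minimum in each of these. For the library labelled DCKO the count of 1 became 2 with a UMI minimum of 20, which lets Gdf6 enter.

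The Gdf5 log2 ratio in all kept cells with age was -0.93 with per-cell means, -1.05 with TMM factors and -0.83 for E13.5 cells without Xist. In the DCKO comparison it was -1.44 with per-cell means and -1.18 with TMM factors. Tendon-like Gdf5 lay between -2.89 and -1.52 in the Prx1Cre;Glut1f/f;Glut3f/+ comparison and between -2.74 and -1.84 in the DCKO comparison under 8 alternatives each. Of the called ratios that were recomputed, none changed sign. Beyond counting error moved 90 of 1024 levels, 61 of 720 single ratios, 148 of 192 shares and 126 of 288 co-detection shares. The alternatives for shares were thinning to other depths and no thinning, which change the detection of a UMI by construction. For co-detection they were thinning, for which the same holds, and the removal of the highest Scrublet scores. The cause of the other changes was not tested. The nearest genes changed for 6 of 6 members with the Spearman correlation.

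Depth limits Gdf6 and Gdf7, where 1 UMI can decide a cell, and the small classes, where 38 to 134 erythroid-like cells set the background. The classes rest on a score, the libraries differ in sex, and 1 library stands for each group, so that the values describe these libraries and not the genotypes or ages.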

Other observations

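Skeletal muscle-like cells, which Prx1Cre does not target, held 21.0, 15.3, 8.73 and 4.77 CPM of Bmpr1b in 646, 215, 313 and 79 cells. Against the E14.5 control the log2 ratio was -0.81 (-1.46 to -0.17) in the library with the label Prx1Cre;Glut1f/f;Glut3f/+ and -1.68 (-3.62 to -0.24) in the library labelled DCKO, the latter from 4 UMIs. Prehypertrophic chondrocyte-like cells of the library labelled DCKO had a log2 ratio of -0.90 (-1.22 to -0.58) for Gdf10 and of -0.88 (-1.17 to -0.59) for Bmpr2, at 37.5 against 69.1 CPM, in 394 against 137 cells. Glial or neuronal-like cells held 23.0, 40.2, 46.6 and 90.8 CPM of Gdf10, in 41, 31, 65 and 40 cells. These small classes were not recomputed under the alternatives.

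The unassigned cells held 27.4, 42.1, 31.4 and 19.4 CPM of Gdf5, between the interzone-like and the fibroblast-like levels of the same library, and contributed 11.0, 9.67, 9.10 and 15.1% of all Gdf5 UMIs.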
